A study of Mus musculus with 6 samples.

Results

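Creatine kinases move a phosphate group between ATP and creatine, and cells with sudden demands for energy hold the product, phosphocreatine, as a reserve. The data described here are the array signals of 10 mouse genes of this reserve: the creatine kinases Ckb, Ckm, Ckmt1 and Ckmt2, the creatine transporter Slc6a8, the creatine synthesis enzymes Gatm and Gamt, the adenylate enzymes Ak1 and Ampd1, and myoglobin, Mb. Every probe set (a group of short oligonucleotides that reads a transcript) was taken whose platform annotation gave exactly 1 symbol and that symbol was among these, which gave 15 of the 45101 probe sets on the array, or 10 of the 18194 genes named by a probe set with 1 symbol. The genes were chosen by function, with the differences between the log2 signals of the 2 groups already known. Their differences are therefore given as a description, without p-values, and nothing rests on how many of them moved.

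RNA came from cultured mouse primary myoblasts, the precursor cells of skeletal muscle, on 6 Affymetrix arrays of the whole mouse genome. In 3 samples the cells had been infected with lentivirus from the Tet-pLKO-puro vector carrying shRNA that targets the long non-coding RNA LncMyoD, and the other 3 were controls. An age of 21 days is given for all 6. The labels do not say what the control cells received, whether an inducer was given, or whether the profiled cells were in growth or differentiation medium. They call the replicates biological without naming separate animals or cultures, so the spread between arrays may be technical. The knockdown itself is not analysed here, because no probe set was matched to LncMyoD.

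As background, the cytosolic creatine kinases work as dimers of M (Ckm) and B (Ckb) subunits. Ckb is the form of brain, smooth muscle and undifferentiated myoblasts, and Ckm is switched on when myoblasts differentiate and becomes the main form of adult skeletal muscle. Mitochondrial forms make phosphocreatine from ATP leaving the organelle. Adenylate kinase turns ADP into ATP and AMP, and AMP deaminase removes the AMP, which keeps the ratio of ATP to ADP high. Myoglobin stores oxygen in muscle fibres.

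Signals were on a log2 scale, and the 27022 probe sets with a mean of at least 6.50 over the 6 arrays were tested, among them 12 of the 15 probe sets of these genes. Both probe sets of Ckmt1 and the single probe set of Ckmt2 were too dim to be tested. The dimmest of the 12 had a mean of 6.53 (Mb, 1422420_at) and the brightest of the 3 left out a mean of 6.23 (Ckmt2). Of the 12, 8 were lower in shRNA samples past an adjusted p of 0.05 in limma, 0 were higher and 4 did not pass, where 23.5% of all tested probe sets were lower and 30.4% higher, 53.9% together. Over all tested probe sets these were 6352 lower and 8214 higher. The counts were 8166 lower and 6674 higher with each array centred on the median of its tested probe sets. The same 8 had all 3 shRNA arrays below all 3 control arrays, as did 25.9% of all tested probe sets, while 33.6% had them above. The median difference, shRNA minus control, was -0.57 over the 12, against 0.021 over all 27022. In bulk RNA, fewer cells of a type and less RNA per cell cannot be told apart for any of these genes.

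The muscle markers desmin and Myod1 were bright in both groups. Desmin (Des) averaged 13.26 in shRNA samples and 13.22 in controls, and Myod1 averaged 13.82 in shRNA samples and 13.80 in controls. Signals were summed on the linear scale over 6 genes of differentiating muscle. The sums ran from 96046 to 99328 in shRNA arrays and from 102588 to 107215 in controls. Of the 6, 4 were lower (Actc1 -0.30, Myh3 -0.15, Myog -0.13 and Acta1 -0.088) and 0 were higher. Mylpf and Tnnt2 did not pass, and Acta1 did not pass without the filter on mean signal. All 6 were bright in both groups. Their means over the 6 arrays ran from 13.61 (Actc1), above 99.0% of probe sets, to 14.48 (Mylpf). The highest value on any array was 14.6. Whether signals this high understate a difference was not tested, also for Des, Myod1 and the brighter probe set of Ak1. Over all tested genes, 22.8% were lower and 35.7% higher. Over 5 precursor genes the sums were 34733 to 36504 in shRNA arrays and 30968 to 33002 in controls, with 3 of 5 higher (Pax7, Myf5 and Cdh15). The 8 fibroblast markers summed to 1945 to 2071 in shRNA arrays and 2440 to 2775 in controls, with 3 lower, 1 higher (Pdgfra), and Dcn, Lum and Thy1 below the level tested. Smooth muscle markers summed to 23342 to 23826 in shRNA arrays and 22973 to 23920 in controls, with Smtn lower and Cnn1 below the level tested. All 4 endothelial markers and all 3 measured adipocyte markers were below that level. Of 5 leukocyte markers, Ptprc, Adgre1 and Itgam were below it, Cd68 was higher (0.33) and Csf1r did not pass (-0.016), and the sums were 339 to 380 in shRNA arrays and 333 to 349 in controls. Of 4 neuronal markers, Rbfox3 and Snap25 were below it, Syn1 was higher (0.59) and Tubb3 lower (-0.56), and the sums were 515 to 606 in shRNA arrays and 603 to 608 in controls. Of 3 measured glial markers, Sox10 and Gfap were below it and S100b did not pass (-0.099). The 3' to 5' log2 signal ratio of the array's control probe sets, which changes with RNA integrity, was 0.044 higher in shRNA samples for actin and 0.085 higher for GAPDH (two-sided exact permutation p = 0.1 for each, the smallest that 20 assignments allow). The part of these shifts in the differences that follow was not tested.

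Ckb, the brain-type subunit, was lower in the shRNA samples. Its probe set 1455106_a_at read 10.71, 10.76 and 10.80 in the shRNA samples, against 12.76, 12.77 and 12.71 in controls. The groups were far apart: the highest shRNA array lay 1.91 below the lowest control array, while the SDs were 0.045 in shRNA samples and 0.032 in controls (n = 3 each). The difference was -1.99 (SE 0.042, 95% interval -2.08 to -1.90), or 3.97-fold lower, and stood at rank 14 from the lowest of the 27022 tested. Without any 1 array it lay between -2.01 and -1.97.

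Ckm, the muscle-type subunit, was also lower, on both of its probe sets. On the brighter, 1417614_at, the shRNA samples read 9.13, 9.10 and 9.12, against 10.55, 10.59 and 10.44 in controls. The groups were apart by 1.31 at the closest, and the difference was -1.41 (SE 0.061, 95% interval -1.54 to -1.28), or 2.66-fold lower. On the dimmer, 1444643_at, the shRNA samples read 6.48, 6.48 and 6.55, against 7.53, 7.54 and 7.32 in controls. The groups did not overlap there either, but the shRNA mean, 6.50, was at the lowest mean signal tested. The difference was -0.96 (SE 0.11, 95% interval -1.20 to -0.72). Ckb and the brighter probe set of Ckm were the 2 of these 12 probe sets that were at least 2-fold lower, a size that 1.42% of all tested probe sets reached past the threshold.

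**Figure D1:**
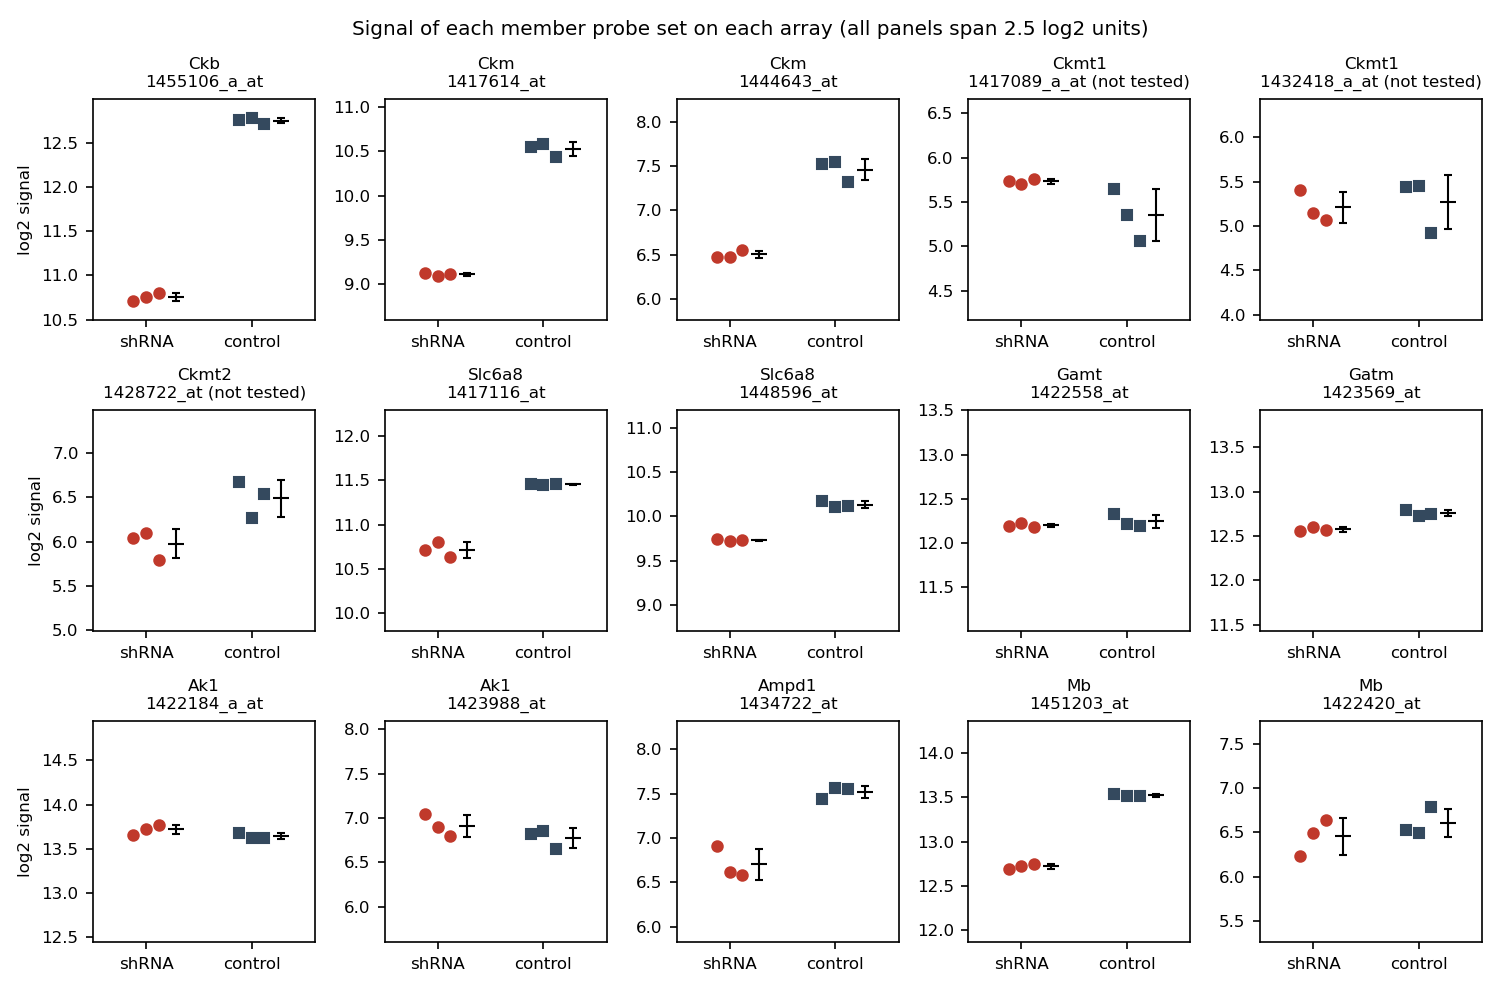
Log2 signal of each of the 15 probe sets on each array, with shRNA samples as circles on the left and controls as squares on the right of each panel. The black bar is the group mean ± SD (n = 3), every panel spans the same number of log2 units, and panels marked as not tested fell below the signal filter. Among the tested probe sets, the shRNA arrays lie below the controls without overlap for Ckb, Ckm, Slc6a8, Gatm, Ampd1 and the brighter Mb probe set. Among the 3 not tested, they lie below for Ckmt2 and above for 1 of the 2 Ckmt1 probe sets.

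The promoters of these 2 genes are shown because only these 2 reached a 2-fold difference, and because Ckm is a classical target of Myod1, which binds E-boxes. The sequences are from RefSeq (GRCm38.p6) and run from 250 bases before to 50 after the annotated start, 5′ to 3′ on the gene's strand. That of Ckb lies at chr12:111672289-111672588 on the minus strand and that of Ckm at chr7:19410844-19411143 on the plus strand. Capitals mark matches, on either strand, to the E-box CANNTG and its form CAGCTG, to TATAAA, to the MEF2 motif, to the CArG box or to CCCACCCC, a CCAC box.
Ckb: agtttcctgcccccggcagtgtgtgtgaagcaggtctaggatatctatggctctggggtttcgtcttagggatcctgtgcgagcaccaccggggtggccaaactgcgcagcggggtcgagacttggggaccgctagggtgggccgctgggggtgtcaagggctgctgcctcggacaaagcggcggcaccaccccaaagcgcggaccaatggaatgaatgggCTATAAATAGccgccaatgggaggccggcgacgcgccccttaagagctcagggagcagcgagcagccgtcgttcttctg
Ckm: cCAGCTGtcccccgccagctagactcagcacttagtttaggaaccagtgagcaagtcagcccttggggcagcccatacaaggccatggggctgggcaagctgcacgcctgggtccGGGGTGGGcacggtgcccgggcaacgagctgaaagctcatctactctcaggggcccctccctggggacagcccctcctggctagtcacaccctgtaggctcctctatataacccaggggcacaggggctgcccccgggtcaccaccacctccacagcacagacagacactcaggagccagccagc

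The window of Ckb held a MEF2 motif that starts at -29 from the annotated start and overlaps a TATAAA at -28, and it held 0 E-boxes. The window of Ckm held 1 E-box, of the CAGCTG form, at -249, and CCCACCCC on the other strand at -135. Over all 32851 promoters of the same length, 72.3% held CANNTG, 16.3% CAGCTG, 13.6% TATAAA, 3.19% the MEF2 motif, 1.63% the CArG box and 9.40% CCCACCCC. Of the 10 genes, 8 were matched in the table, with 14 promoters in all. An E-box was found in a window of every matched gene but Ckb. Besides Ckm, the CAGCTG form was found in windows of Ckmt1, Ckmt2, Ak1 and Mb. Besides Ckb, a MEF2 motif was found at 1 of the 4 starts of Ak1. CCCACCCC was found at 2 of the 3 starts of Mb, in windows that overlap, and at 1 of the 2 of Ckmt1. A match describes the letters in the window and is not a measured binding site, and the known muscle enhancer of Ckm lies further upstream than the window reaches.

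**Figure D2:**
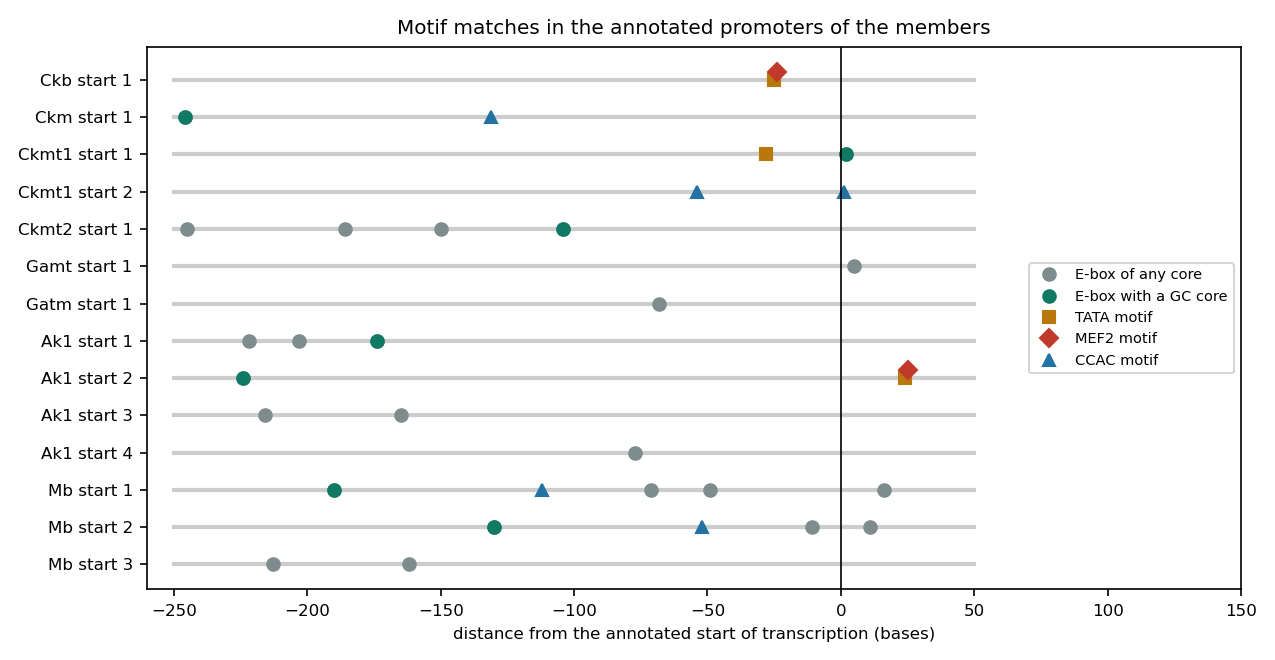
Matches to 5 motifs in the 14 annotated promoters of 8 of the genes, by distance in bases from the annotated start of transcription (vertical line). Each grey bar is a window from 250 bases before to 50 after a start. Ckb has a MEF2 motif overlapping a TATA motif just before its start, and Ckm has an E-box at the far end of its window. Every gene shown except Ckb has an E-box in a window.

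The mitochondrial creatine kinases gave signals too low to be tested. Ckmt2, the sarcomeric form, read 6.04, 6.10 and 5.80 in shRNA samples and 6.68, 6.26 and 6.53 in controls. The shRNA arrays were the lower ones, by 0.16 at the closest. With no signal filter the difference was -0.51 (95% interval -0.82 to -0.21) and past the threshold, as were 14.8% of all probe sets in that direction. Ckmt1, the ubiquitous form, read 5.73, 5.70 and 5.76 in shRNA samples and 5.65, 5.36 and 5.06 in controls on 1417089_a_at. Those shRNA arrays were the higher ones, by 0.050 at the closest, with a difference of 0.38 that did not pass without the filter (95% interval 0.064 to 0.69). On 1432418_a_at Ckmt1 read 5.41, 5.15 and 5.07 in shRNA samples and 5.44, 5.45 and 4.92 in controls, and the groups overlapped. Without detection calls, none of these signals can be told from background.

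Creatine reaches the kinases by uptake through Slc6a8 or by synthesis, in which Gatm makes guanidinoacetate from arginine and glycine and Gamt methylates it. The transporter was lower on both probe sets. On 1417116_at Slc6a8 read 10.71, 10.81 and 10.63 in shRNA samples and 11.46, 11.45 and 11.46 in controls. The control arrays were nearly equal (SD 0.0058, n = 3), and the difference was -0.74 (SE 0.051, 95% interval -0.85 to -0.63), or 1.67-fold lower. On 1448596_at it read 9.74, 9.73 and 9.73 in shRNA samples and 10.17, 10.11 and 10.11 in controls, with a difference of -0.40 (SE 0.055, 95% interval -0.52 to -0.28). The groups did not overlap on either probe set.

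The synthesis enzymes differed by less. Gatm read 12.55, 12.60 and 12.57 in shRNA samples and 12.79, 12.73 and 12.74 in controls. The groups were 0.13 apart at the closest, with a difference of -0.18 (SE 0.036, 95% interval -0.26 to -0.10), or 1.13-fold lower, past the threshold. Gamt read 12.19, 12.22 and 12.18 in shRNA samples and 12.32, 12.22 and 12.19 in controls. Its groups overlapped, and the difference of -0.045 (95% interval -0.14 to 0.047) did not pass. The difference was -0.11 and past the threshold with each array centred on the median of its tested probe sets.

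Ak1, the cytosolic adenylate kinase of muscle, did not pass the threshold on either probe set. The brighter, 1422184_a_at, read 13.66, 13.73 and 13.77 in shRNA samples and 13.68, 13.62 and 13.63 in controls, with a mean above that of 99.2% of probe sets. The groups overlapped, with a difference of 0.077 (95% interval -0.0025 to 0.16). It passed after quantile normalization (0.096), without shRNA replicate 1 (0.11) and without control replicate 1 (0.096). On 1423988_at Ak1 read 7.04, 6.90 and 6.80 in shRNA samples and 6.82, 6.85 and 6.65 in controls. The groups overlapped on this probe set too, with a difference of 0.14 (95% interval -0.12 to 0.40).

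Ampd1, the AMP deaminase of skeletal muscle, was lower. It read 6.91, 6.62 and 6.58 in shRNA samples and 7.44, 7.56 and 7.56 in controls. The shRNA arrays were all below the controls, by 0.53 at the closest, with the wider spread among them (SD 0.18 in shRNA samples and 0.067 in controls, n = 3 each). The difference was -0.81 (SE 0.12, 95% interval -1.07 to -0.56), or 1.76-fold lower, and lay between -0.92 and -0.76 without any 1 array.

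Mb, myoglobin, gave unlike results on its 2 probe sets. On 1451203_at it read 12.69, 12.72 and 12.75 in shRNA samples and 13.54, 13.51 and 13.52 in controls. The groups were far apart relative to SDs of 0.031 in shRNA samples and 0.014 in controls (n = 3 each), and the difference was -0.80 (SE 0.034, 95% interval -0.88 to -0.73), or 1.75-fold lower. On 1422420_at it read 6.23, 6.50 and 6.64 in shRNA samples and 6.53, 6.49 and 6.78 in controls. The groups overlapped there, near the lowest signal tested, and the difference of -0.15 (95% interval -0.45 to 0.16) did not pass. The mean of both Mb probe sets differed by -0.47, past the threshold.

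**Figure D3:**
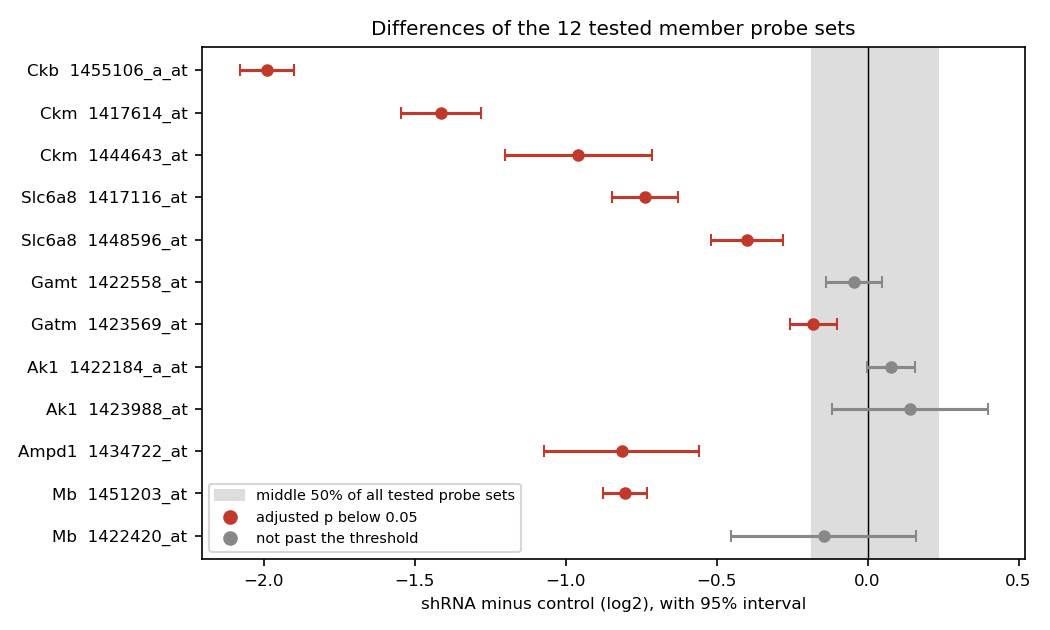
Difference between groups, shRNA minus control on the log2 scale, for the 12 tested probe sets, with limma's 95% interval. The grey band holds the middle 50% of the differences of all 27022 tested probe sets, from -0.18 to 0.23. Ckb, Ckm, Slc6a8, Ampd1 and the brighter Mb probe set lie to the left of it. Gamt, both Ak1 probe sets and the dimmer Mb probe set lie within it, and Gatm lies just inside its left edge.

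Genes with a profile near that of Ckb or Ckm were sought by the root mean square distance over the 6 arrays, after subtracting each gene's own mean. Of the tested genes outside the 10, those nearest to Ckb were Tcap (distance 0.046), Ankrd2 (0.052), Afap1l1 (0.055), Plod2 (0.082) and Pde2a (0.096). Tcap is the titin cap of the Z-disc, Ankrd2 a stretch-responsive ankyrin repeat protein of muscle, Plod2 a lysyl hydroxylase of collagen, and Pde2a a cyclic nucleotide phosphodiesterase. Ankrd2 averaged 9.73 in shRNA samples and 11.67 in controls. Nearest to Ckm were Tmem184a (0.036), Antxr2 (0.041), Nkiras2 (0.045), Osgin2 (0.047) and App (0.056). App, the amyloid precursor protein, averaged 11.03 in shRNA samples and 12.38 in controls. With 6 arrays in 2 groups, nearness here reflects mainly a group difference of about the same size.

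**Figure D4:**
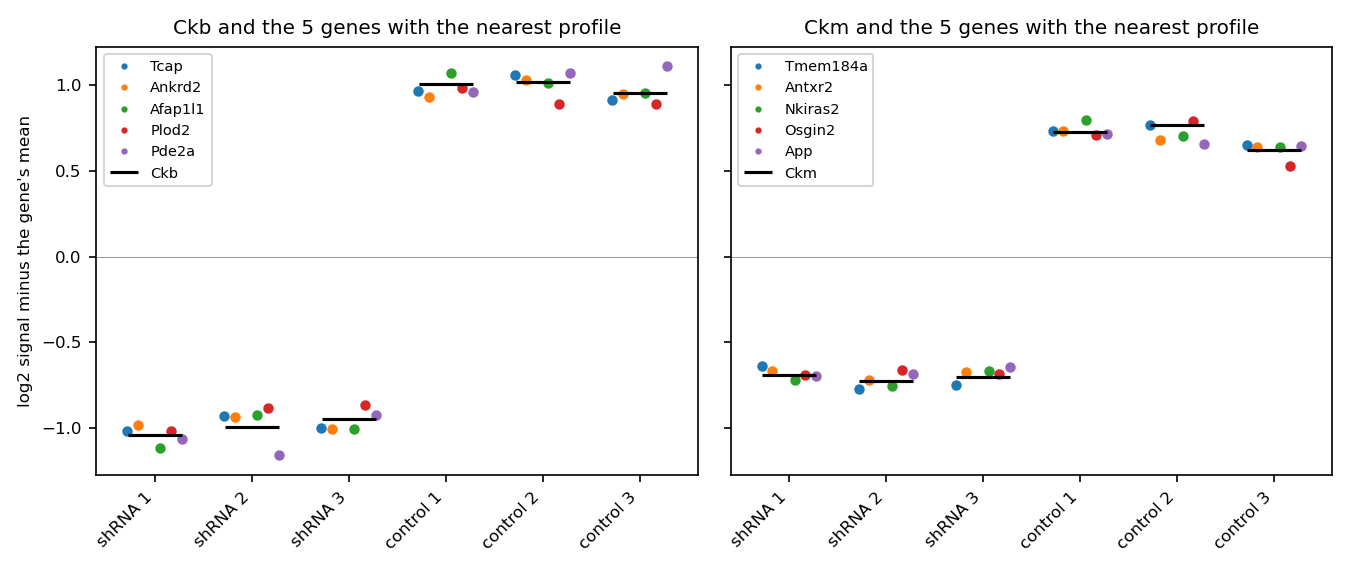
Log2 signal minus the gene's own mean on each of the 6 arrays, for Ckb (left) and Ckm (right) as black dashes and the 5 genes nearest to each as points. All genes shown sit below 0 on the 3 shRNA arrays and above 0 on the 3 control arrays.

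The rest of the pathway was followed with 6 lists, each gene by its brightest tested probe set. Of all 12408 tested genes, 22.8% were lower in shRNA samples and 35.7% higher (58.5% together), with a median difference of 0.046. The lists were chosen with earlier results of these data known. Genes named from them were mainly picked by their small p, so their p-values are given as a description. Other nucleotide kinases moved both ways: of 8 tested genes 3 were higher, 3 lower and 2 did not pass; the median was 0.047. Ak5, an adenylate kinase known from brain, read 9.20, 9.14 and 9.20 in shRNA samples and 7.78, 7.58 and 7.33 in controls. It rose 3.07-fold (1.62 on the log2 scale, SE 0.11, limma adjusted p = 6.69e-08), and its other probe set rose by 1.35. The UMP-CMP kinase Cmpk1 (0.40) and the mitochondrial nucleoside diphosphate kinase Nme4 (0.46) rose as well. The mitochondrial adenylate kinases Ak4 (-0.52) and Ak3 (-0.14) and the guanylate kinase Guk1 (-0.48) fell. The call of Ak3 was lost without shRNA replicate 1 (-0.13) or 2 (-0.14), without control replicate 1 (-0.12) or 3 (-0.12), without a variance trend, and with its probe sets averaged, and its other 2 probe sets did not pass.

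Genes of the purine nucleotide cycle, of purine salvage and of AMP removal rose in 10 of 13 tested cases, while 0 were lower and 3 did not pass; the median was 0.17. Pnp, the purine nucleoside phosphorylase, read 10.59, 10.64 and 10.60 in shRNA samples and 9.79, 9.75 and 9.70 in controls, a rise of 0.86 (SE 0.053, limma adjusted p = 3.62e-08). Adss (0.75), which starts the return of IMP to AMP in the same cycle as Ampd1, also rose. So did the nucleotidase Nt5c (0.59) and the adenine salvage enzyme Aprt (0.22). Adssl1, in the same list, rose by 0.086 (limma adjusted p = 0.0476) and did not pass without the signal filter. The other AMP deaminases, Ampd2 and Ampd3, differed by 0.17 (limma adjusted p = 0.0392) and -0.13 (limma adjusted p = 0.0505), beside the -0.81 of Ampd1. Ampd2 did not pass without the signal filter, and its other probe set did not pass. The count of increases was 5, with 1 gene lower, with each array centred on the median of its tested probe sets. It was 6 with scaling to hybridization controls, 5 without shRNA replicate 2 and 6 without control replicate 3.

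AMP-activated protein kinase (AMPK) senses a rise of AMP relative to ATP, and its subunits and activating kinases moved both ways. Of 12 tested genes 5 were higher, 5 lower and 2 did not pass; the median was 0.0028. The catalytic subunit Prkaa1 read 10.52, 10.63 and 10.63 in shRNA samples and 11.43, 11.32 and 11.34 in controls, a difference of -0.77 (SE 0.051, limma adjusted p = 6.60e-08). Prkag3 (-0.70), the gamma subunit of skeletal muscle, and the gamma subunit Prkag1 (-0.37) fell, while the beta subunit Prkab1 (0.41) and the gamma subunit Prkag2 (0.41) rose. The subunits Prkaa2 (0.070) and Prkab2 (-0.065) did not pass, although the other 2 probe sets of Prkab2 were lower past the threshold. With each gene's probe sets averaged, 4 genes of this list were higher and 6 lower. The activating kinases Camkk2 (0.78) and LKB1, encoded by Stk11 (0.43), rose, and the other 3 probe sets of Camkk2 rose too. Of the partners of LKB1, Stradb rose (0.20), and Strada (-0.56) and Cab39 (-0.091) fell. The other probe set of Stradb did not pass. Of the other 2 probe sets of Strada, 1 fell (-0.40) and 1 did not pass (0.016), and their mean with the brightest differed by -0.32. Cab39 did not pass without the signal filter.

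Genes that carry adenine nucleotides and phosphate across the mitochondrial membranes mostly did not pass: of 8 tested genes 1 was higher, 1 lower and 6 did not pass; the median was 0.0047. Vdac1, a channel of the outer membrane, fell (-0.14), with 2 of its other 4 probe sets lower and 2 not past the threshold. The ATP synthase inhibitor Atpif1 rose (0.17), although its other probe set did not pass (0.046). With arrays centred on the median of tested probe sets 1 was higher and 3 lower. The same counts came from the mean over each gene's probe sets, in which Atpif1 did not pass (0.11). Without a variance trend Atpif1 passed and Vdac1 did not.

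Genes that supply arginine and methyl groups for creatine, with related carriers, were split: of 11 tested genes 3 were higher, 3 lower and 5 did not pass; the median was 0.020. Ahcyl2, related to the enzyme that clears S-adenosylhomocysteine, read 10.42, 10.41 and 10.48 in shRNA samples and 12.14, 12.02 and 12.08 in controls. It fell 3.12-fold (-1.64 on the log2 scale, SE 0.048, limma adjusted p = 8.96e-11), and its other 2 probe sets fell by 1.06 and 0.40. Methionine synthase, Mtr, fell by 0.67, although its other probe set did not pass (-0.30). The taurine transporter Slc6a6, of the same family as Slc6a8, fell by 0.66, and its other 3 probe sets fell by 0.79, 1.87 and 1.94. Slc7a1, a carrier of arginine, rose by 0.32, and Ahcyl1, the close relative of Ahcyl2, rose by 0.22. Ahcy, the enzyme that clears S-adenosylhomocysteine, did not pass (-0.059).

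Genes of oxygen sensing, haem synthesis and calcineurin signalling, set beside Mb, were higher in 6 of 11 tested cases, lower in 1 and without a call in 4; the median was 0.12. The haem enzymes Urod (0.39) and Fech (0.24), and the growth factor Vegfa (0.32), rose. Of the other 3 probe sets of Fech, 1 rose and 2 did not pass. Rcan1, a regulator of calcineurin, fell by 0.44. The other globins listed, Cygb and Ngb, were below the level tested. With each array centred on the median of its tested probe sets, 4 genes of this list were higher and 2 lower. The counts were 4 higher and 1 lower without the variance trend, without shRNA replicate 2 and without control replicate 2.

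**Figure D5:**
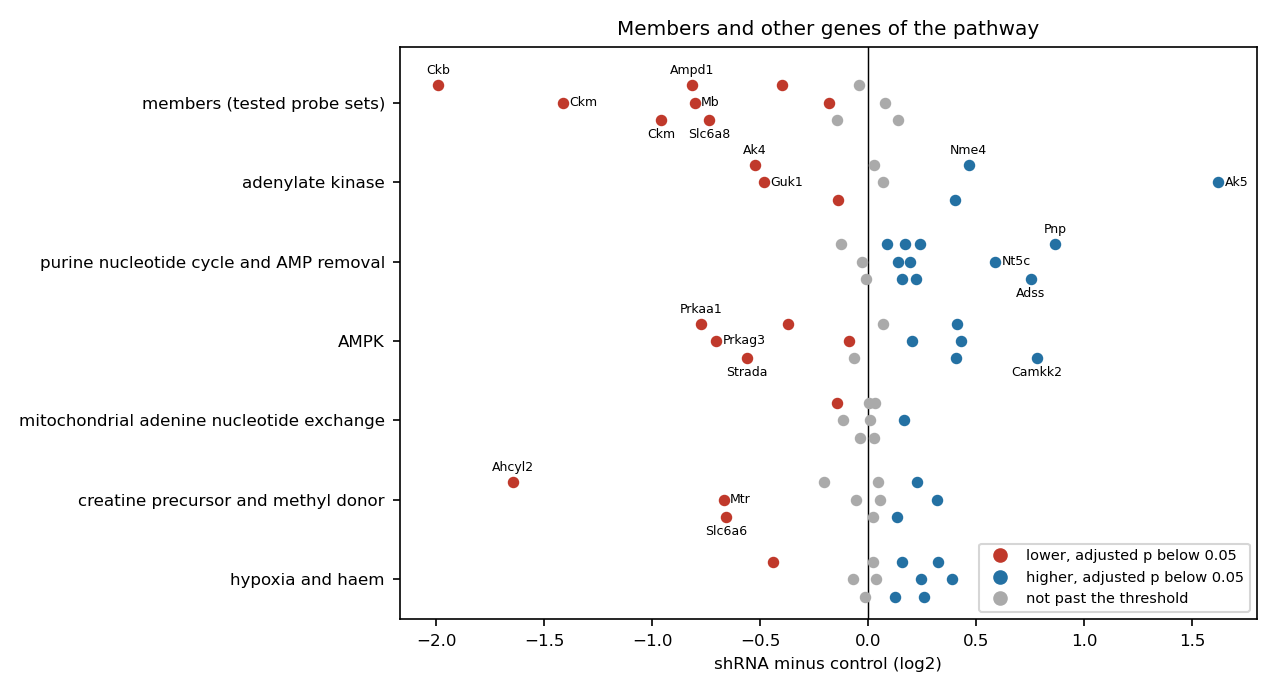
Difference between groups, shRNA minus control on the log2 scale, for the tested probe sets of the 10 genes (top row) and for the genes of the 6 other lists. Red is lower and blue higher past the threshold, and grey did not pass. The top row was chosen with these differences known. Points of the purine row past the threshold lie to the right of 0, while the AMPK row has 5 on each side.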

How the data were processed

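Total RNA was labelled and hybridised to 6 arrays, 3 per group, and the groups follow the sample titles. For each array the authors deposited a normalized log2 signal of every probe set. That the scale is log2 was inferred from the range (4.48 to 14.6), and every array had a median of 7.23. PLIER and MAS5 are named, without a role, in the submitters' processing notes. Their versions, the background correction and whether an offset was added are not stated there; an offset would make fold changes of dim probe sets too small. Arrays have no read depth, and their number limits the precision. Of the value columns, 0 lacked a sample.

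The 64 control probe sets and the dimmest 40% of the rest by mean over all arrays (18015) were left out. Differences, shRNA minus control, were tested with limma 3.58.1 in R 4.3.3 (lmFit, eBayes with a mean-variance trend, no covariates) and Benjamini-Hochberg adjustment over all 27022 probe sets, with a threshold of 0.05. Intervals are limma's 95% intervals, and ± gives SDs. The calculations were tested on simulated data in which far fewer probe sets changed than passed here. That run therefore does not give the error rate of the calls in these data. Genes were named through GEO's platform annotation, in which 34958 probe sets had 1 symbol, 932 several and 9211 none. Promoters were searched on both strands.

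The genes, the 6 lists and the tests were chosen with earlier results of these data known. Lists hold alternative symbols of some genes, and symbols without a named or tested probe set are not analysed here. Named from each list were up to 4 genes with the smallest p past the threshold and up to 2 that moved against the majority, 26 in all, and for Ckb and Ckm the 5 genes with the nearest profile. In lists with as many higher as lower genes, the lower ones were taken as against the majority. Ampd2, Ampd3, Adssl1, Cygb, Ngb, Ahcy, Ahcyl1 and the AMPK genes Prkab1, Prkag2, Prkaa2, Prkab2, Stradb and Cab39 were named after their values were seen. Alternatives covered the filter, scaling, variance trend, averaging of probe sets, the replicate number as a block, and leaving out each array. Same-numbered arrays of the groups did not deviate together (correlations of -0.13, -0.062 and 0.031), so the numbers were not taken to pair them.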

Additional observations from a re-analysis of the deposited data

How the results depend on the processing

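The count of probe sets of the 10 genes past the threshold was 8 of 12, and 8 or 9 of 12 in each alternative that kept these 12. It was 9 of 15 with no filter and 6 of 8 with the dimmest 60% left out, and 6 of 8 genes passed with probe sets averaged. Over all probe sets, 53.9% passed in the main fit. With no filter, 6643 of 45037 were lower and 8492 higher. With the dimmest 60% left out, 4835 of 18014 were lower and 6608 higher. The share of all genes with probe sets averaged is not given here. Each of the 8 stayed lower and past the threshold in every alternative that tested it. Of 524 alternative values for 38 named probe sets, 512 kept their direction and call, 0 reversed, 8 lost the call and 4 gained one. The 10 calls of the purine list became 6 with arrays centred on the median of tested probe sets. They became 6 with scaling to hybridization controls and 5 to 9 with 1 array left out. The 2 calls of the mitochondrial exchange list became 4 with centring, 1 without the variance trend and 4 with probe sets averaged. With the replicate block, 8 of the 12 probe sets passed, and so did 8 genes of the purine list, 6 nucleotide kinases and 9 AMPK genes; no count moved by over 1.5 times. The causes of these shifts were not tested. Signal over background was not measured, which limits Ckmt1, Ckmt2, Ampd1 and the dimmer probe sets of Ckm, Ak1 and Mb.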
